A study of Mus musculus with 6 samples.

Results

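The SOCS family is a set of 8 genes, Socs1 to Socs7 and Cish, whose products restrain the signalling of cytokine receptors. All probe sets that name 1 of these genes alone on the array were taken, which gave 24 probe sets of 45101 and 8 genes of 18193. Affymetrix arrays were hybridized with RNA of CD11b+ cells that had been sorted from femur and tibia marrow of HdcGFP mice on a C57BL/6 background, in which green fluorescent protein reports the histidine decarboxylase gene Hdc. The gate took GFP+ or GFP-high cells that carry CD11b, an integrin of myeloid cells. Cells with low Gr1 made the Gr1lo group (3 arrays) and cells with high Gr1 the Gr1hi group (3 arrays). No treatment or age is given in the labels, and whether replicates are separate animals is not stated, so the spread behind each p-value may be technical. Every difference below is Gr1hi minus Gr1lo on the deposited log2 scale, and the number of arrays limits its precision.

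Cytokine receptors of this kind lack a kinase of their own and use Janus kinases (JAKs), which phosphorylate STAT transcription factors. STATs then switch on several SOCS genes, and the SOCS proteins bind phosphorylated receptors or JAKs through an SH2 domain and close the loop. Their C-terminal SOCS box recruits elongins B and C and cullin 5, a ubiquitin ligase. In neutrophil development SOCS3 is known as the brake on the receptor of granulocyte colony-stimulating factor.

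STATs bind a palindrome with the letters TTCNNNGAA. The window of 250 bases before the RefSeq start (assembly GRCm38.p6) was at hand for 4 of the 8 genes, Cish, Socs1, Socs3 and Socs4. The palindrome, which reads the same on both strands, was found once in the Socs3 window and not in the other 3, and a form with 1 more N in the spacer was found in none of the 4. Of 32851 such windows 7.02% hold the first form and 5.85% the second. The Socs3 stretch below is shown because Socs3 moved most, with the match in capitals, beginning 154 bases before the start at chr11:117969502-117969530, minus strand. RefSeq draws the Socs3 gene from 117966079 to 117970336, so this stretch lies inside the annotated gene and upstream of the start used here. The Cish window at chr9:107296409-107296658, plus strand, is shown because Cish also rose. It holds neither form, which says only that these letters are not in this window.
Socs3: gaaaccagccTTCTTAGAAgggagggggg
Cish: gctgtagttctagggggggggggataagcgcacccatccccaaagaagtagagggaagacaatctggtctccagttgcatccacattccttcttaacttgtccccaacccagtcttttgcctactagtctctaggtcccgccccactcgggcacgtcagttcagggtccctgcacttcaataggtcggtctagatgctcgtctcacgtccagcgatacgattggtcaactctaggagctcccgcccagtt

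The labels were checked before the comparison. All 6 samples are labelled female, yet the Y-linked gene Eif2s3y stood between 9.02 and 10.7 on all 6 arrays. Xist was at 10.9 and 10.1 in the replicate 3 arrays of Gr1lo and Gr1hi and at 2.43 or lower on the other 4, so both replicate 3 arrays stand apart and results are also given without them. One description of Gr1lo replicate 3 can be read as GFP-negative, and its title places it in the group. The 10 fixed neutrophil markers lay above 2.77, the highest value of 3 control probe sets of absent transcripts, in both groups. Their level was not equal, as 4 were called higher in Gr1hi and 0 lower. Cxcr2 rose by 2.99, Csf3r by 2.68, Mmp8 by 2.46 and Mmp9 by 2.01. The summed linear level of the 10 was 144000 to 167000 in Gr1lo and 191000 to 199000 in Gr1hi. Several lists of other cell types moved with the groups in summed linear level. The range was 1040 to 2200 in Gr1lo and 3790 to 4760 in Gr1hi for 8 monocyte markers, where only Csf1r was called higher and only F13a1 lower. Csf1r, at 11.78 log2 in Gr1hi, made most of the Gr1hi sum. The mean log2 level of the 8 overlapped between the groups, at 5.433 to 6.745 in Gr1lo and 5.77 to 6.994 in Gr1hi. For 9 macrophage markers 3 rose, Cd68 (by 4.42), Adgre1 (by 2.99) and Siglec1 (by 0.29), and 1 fell, Vcam1 (difference -5.25). Siglec1 was nevertheless at the absent level in both groups, as were Mertk, C1qc and Marco. The sum of the 9 was 1170 to 1660 in Gr1lo and 798 to 1140 in Gr1hi. It moved against their mean log2 level, which was 3.74 to 3.95 and 4.05 to 4.45. The sum was 477 to 552 and 113 to 408 for 7 basophil and mast cell markers (Fcer1a and Cd200r3 at the absent level). Kit, at 8.41 log2 in Gr1lo, made most of the Gr1lo sum. Kit and Ms4a2 were called lower, while Mcpt8, Cpa3 and Gata2 were not called. The mean log2 level of the 7 overlapped between the groups, at 4.202 to 4.856 in Gr1lo and 3.332 to 4.785 in Gr1hi. For 7 T and NK cell markers the sum was 44.0 to 64.6 and 372 to 444, with Cd3d making most of the Gr1hi level and Cd3e, Cd3g and Ncr1 at the absent level. It was 334 to 464 and 115 to 154 for 7 stem and progenitor markers, where Kit, which the basophil and mast cell list also holds, differed by -1.94 and Hlf by -0.86, with Cd34, Flt3 and Mecom at the absent level. For 6 erythroid markers it was 54.1 to 55.8 and 36.2 to 42.8, where Hemgn differed by -1.96 and Klf1, Alas2, Epb42 and Ermap were at the absent level. Sums rose slightly for 4 megakaryocyte and platelet markers (25.5 to 28.5 and 30.4 to 33.8) and 5 dendritic cell markers (28.4 to 31.8 and 32.7 to 35.3). That of 6 stromal and endothelial markers also rose (36.3 to 40.7 and 43.5 to 48.3). Each of these lists held genes at the absent level. The B cell and eosinophil sums overlapped between the groups. The part of other cell types in the results below was not tested. In bulk samples fewer cells of a type and less RNA per cell cannot be told apart.

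Socs3 and Cish rose, Socs6 fell, and these 3 differences held under every scaling tried. Socs3 rose by 5.82, Cish by 1.35, and Socs6 fell by 1.65. Socs2 rose by 0.57, Socs7 fell by 1.29 and Socs4 by 0.47, but each of these 3 calls was lost under another scaling. Socs5 did not pass the test, and Socs1 stayed at the level of absent transcripts on all 6 arrays. Of the 8 genes 7 passed the filter on low values, and 6 of the 7 passed the threshold of 0.05 on limma's adjusted p, 3 with more and 3 with less transcript in Gr1hi. That rule called 56.4% of 12732 tested genes, 24.6% higher and 31.8% lower, so a call alone says little here and the sizes carry the description. The arrays of both groups did not overlap in 6 of the 7 genes, 3 of them higher and 3 lower in Gr1hi, against 65.5% of all tested genes (30.7% higher, 34.8% lower). The family's median difference was -0.09 and that of all tested genes 0.03.

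**Figure D1:**
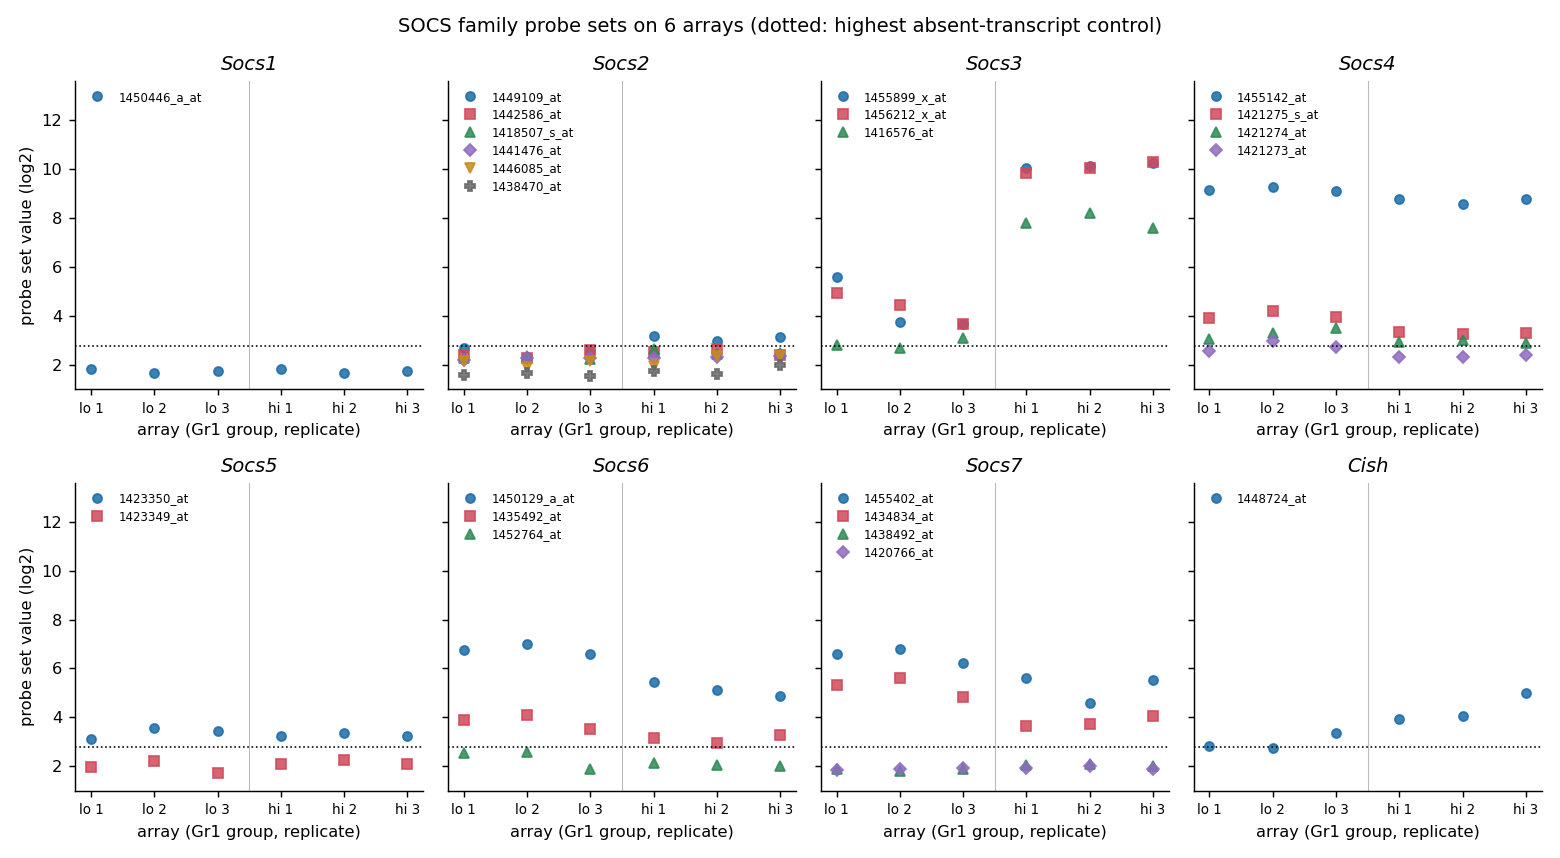
Values (log2) of all 24 SOCS probe sets on the 6 arrays, 1 panel per gene, with 1 marker shape per probe set and the highest absent-transcript control (2.77) as a dotted line. All 3 Socs3 probe sets are high on the 3 Gr1hi arrays, while the Socs1 probe set stays under the dotted line on all arrays.

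Socs3, the inhibitor of signalling through the receptors of granulocyte colony-stimulating factor and of the interleukin-6 family, had the largest difference of the family. Its brightest probe set, of the x type, read 5.57, 3.74 and 3.65 in Gr1lo and 10.05, 10.13 and 10.24 in Gr1hi replicates 1, 2 and 3. The groups were far apart, and Gr1lo replicate 1 was the highest of its group. The mean rose from 4.32 ± 1.09 to 10.14 ± 0.10 (SD, n = 3 per group), a 56.5-fold difference with a 95% interval of 4.82 to 6.82 on the log2 scale (limma adjusted p = 4.13e-06). Among the 12732 tested genes it ranked at place 28 of the rises.

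The other Socs3 probe sets rose as well. A second x-type probe set read 4.92, 4.45 and 3.66 in Gr1lo and 9.84, 10.03 and 10.27 in Gr1hi, a difference of 5.70 (limma adjusted p = 4.03e-07 over 22695 probe sets). The x type marks probe sets some of whose probes can match other transcripts. The third probe set, which is not of that type, read 2.79, 2.67 and 3.08 in Gr1lo and 7.79, 8.22 and 7.60 in Gr1hi, a rise of 5.02 (adjusted p = 1.99e-07). On this probe set Gr1lo replicate 1 was not the highest of its group. Its Gr1lo values lay around the highest absent-transcript control, so the size of its difference depends on background. Without both replicate 3 arrays the rise of the brightest probe set was 5.43.

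Cish, a STAT5-induced member that acts on receptors of the interleukin-2, interleukin-3 and growth hormone kind, rose from a low level. It read 2.82, 2.74 and 3.37 in Gr1lo and 3.94, 4.04 and 4.99 in Gr1hi. Every Gr1hi array was above every Gr1lo array, and in both groups replicate 3 was the highest. The rise from 2.98 ± 0.34 to 4.32 ± 0.58 was 2.54-fold (95% interval 0.70 to 1.99 on the log2 scale, limma adjusted p = 0.00271). On the log2 scale the rise was 1.35, and 1.21 without both replicate 3 arrays. Only 1 probe set names Cish, and 5 of its 6 values exceeded the highest absent-transcript control, which leaves the size of the rise dependent on background.

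Socs2, known as the brake on growth hormone signalling, was barely above background. Its brightest probe set read 2.68, 2.31 and 2.56 in Gr1lo, all under the highest absent-transcript control, and 3.19, 2.96 and 3.12 in Gr1hi, all above it. The rise of 0.57 (SE 0.12, limma adjusted p = 0.00229) lost its call with the arrays centred on spiked hybridization controls (called control-centred arrays below), where it was 0.31 (adjusted p = 0.0927; 1.41e-05 to 0.0927 over its alternatives). Socs2 was also not tested, and so not called, with the filter at the 60th percentile or with the mean of its 6 probe sets. The other 5 Socs2 probe sets stayed at absent-transcript level on all 6 arrays and were not tested.

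Socs6, which binds phosphorylated receptor kinases such as KIT and the insulin receptor, had the largest fall of the family. Its brightest probe set read 6.77, 7.02 and 6.58 in Gr1lo and 5.43, 5.10 and 4.89 in Gr1hi. The lowest Gr1lo array lay well above the highest Gr1hi array. The mean fell from 6.79 ± 0.22 to 5.14 ± 0.27, a 3.14-fold difference (95% interval -2.13 to -1.17 on the log2 scale, limma adjusted p = 1.21e-04). A second probe set read 3.87, 4.11 and 3.53 against 3.15, 2.96 and 3.29 and fell by 0.71 (adjusted p = 0.00619), and the third Socs6 probe set was under the absent-transcript controls throughout. The mean of the 3 probe sets fell by 0.87, less than the brightest one alone.

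Socs7, an adaptor-like member known to bind insulin receptor substrates, also fell. Its brightest probe set read 6.59, 6.81 and 6.21 in Gr1lo and 5.61, 4.59 and 5.54 in Gr1hi, with Gr1hi replicate 2 the lowest array. The fall from 6.54 ± 0.30 to 5.25 ± 0.57 was 2.44-fold (SE 0.30 on the log2 scale, limma adjusted p = 0.00461). A second probe set read 5.33, 5.62 and 4.82 against 3.64, 3.72 and 4.05 and fell by 1.45 (adjusted p = 4.59e-04), while the other 2 were at absent-transcript level on every array. With each array centred on the median of its kept genes (median-centred arrays below) the brightest probe set was not called (difference -0.61, adjusted p = 0.0565; 6.72e-05 to 0.0565 over its alternatives). The mean of the 4 probe sets fell by 0.63.

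Socs4, a member with a long N-terminal part that acts on the epidermal growth factor receptor, fell slightly on the deposited scale. Its brightest probe set read 9.16, 9.25 and 9.11 in Gr1lo and 8.77, 8.56 and 8.79 in Gr1hi. The groups did not overlap, but the gap between the nearest arrays was small. The difference was -0.47 (SE 0.12, limma adjusted p = 0.00945). With median-centred arrays it turned to 0.21 (adjusted p = 0.137; 0.00164 to 0.137 over its alternatives), so its direction depends on the scaling. That scaling put the median difference of all tested genes at 0.70, above the 0.21 of Socs4. A second probe set differed by -0.70 (adjusted p = 0.00172), and the third by -0.34 without passing the test (adjusted p = 0.0589).

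Socs5, the relative of Socs4 with a similar long N-terminal part, read 3.11, 3.55 and 3.43 in Gr1lo and 3.22, 3.38 and 3.24 in Gr1hi. The groups overlapped. Its difference was -0.09 with a 95% interval of -0.41 to 0.24 (limma adjusted p = 0.628), and with median-centred arrays it was 0.59 (adjusted p = 0.00513; 0.00513 to 0.972 over its alternatives). The 0.59 of Socs5 lay below the median difference of all tested genes under that scaling, 0.70. Socs1, the inhibitor of interferon signalling that blocks JAKs directly, read 1.81, 1.66 and 1.74 in Gr1lo and 1.84, 1.64 and 1.72 in Gr1hi. All 6 values were below the absent-transcript controls, so Socs1 was not detectable with its only probe set and was set aside by the filter. Tested without that filter its interval was -0.17 to 0.16.

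**Figure D2:**
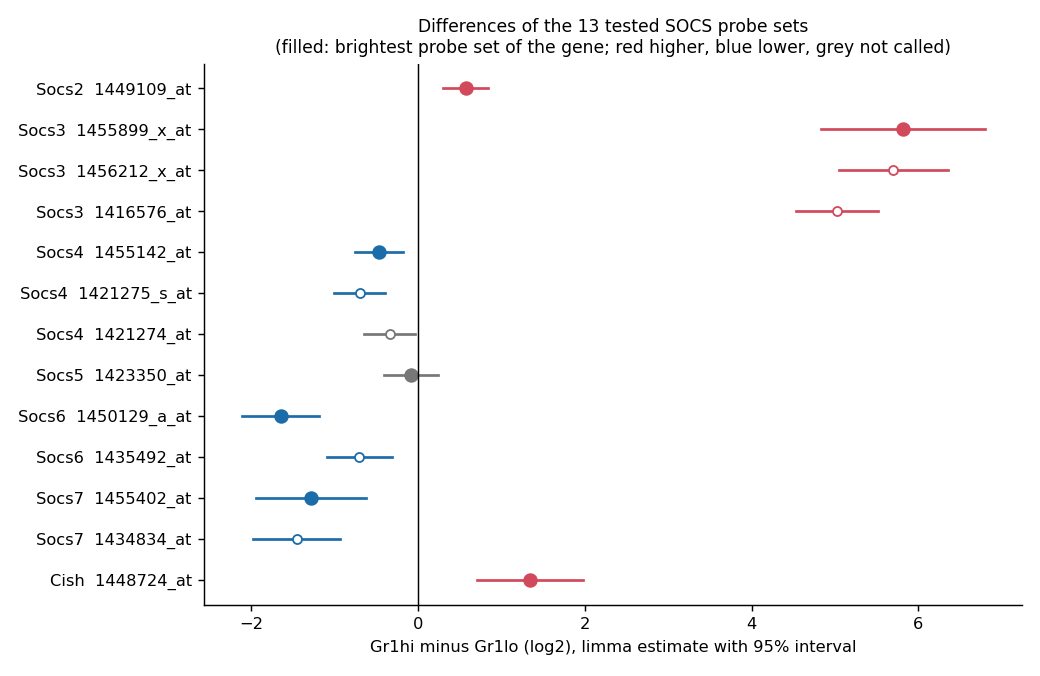
Difference Gr1hi minus Gr1lo (log2) of the 13 tested SOCS probe sets with limma's 95% interval, filled for the brightest probe set of each gene, red for called higher, blue for called lower and grey for not called. The 3 Socs3 probe sets stand between 5.02 and 5.82, and every other probe set lies between -1.65 and 1.35.

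Of the 24 probe sets 13 were tested and 11 of them were called, 5 higher and 6 lower, against 56.2% of all 22695 tested probe sets (26.2% higher, 30.0% lower). The groups did not overlap in 12 of the 13, against 64.9% of all. The tested probe sets of a gene shared 1 direction in Socs3, Socs4, Socs6 and Socs7. The 11 untested probe sets ran from 1.55 to 2.95 and their group means differed by -0.39 to 0.22. The probe sets of a gene share its transcripts and are not replicates of each other.

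The scaling of the arrays shifted all genes together. Centring on the median of kept genes added 0.67 to every difference and centring on the hybridization controls took off 0.26. The median difference of all tested genes became 0.70 with the first and -0.23 with the second, against 0.03 as deposited. Under the first, 4 SOCS genes were called higher (Cish, Socs2, Socs3 and Socs5) and 1 lower (Socs6). Under the second, 2 were called higher (Cish and Socs3) and 3 lower (Socs4, Socs6 and Socs7). Among all tested genes the first centring called 8344 higher and 2316 lower, and the second 1861 higher and 4849 lower, against 3126 and 4051 as deposited.

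**Figure D3:**
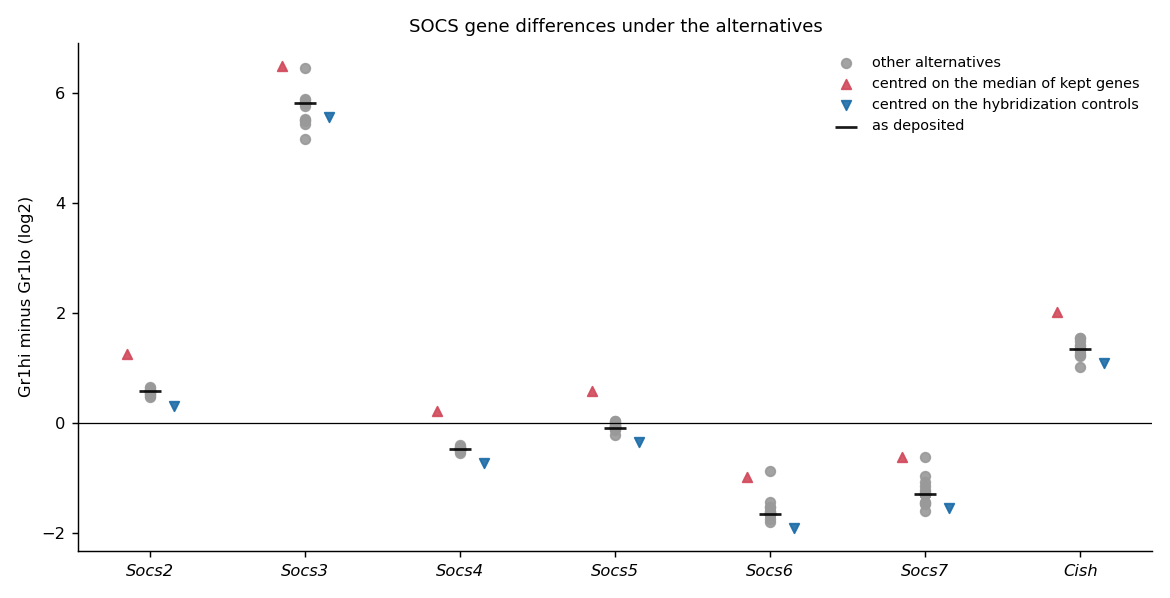
Difference Gr1hi minus Gr1lo (log2) of the 7 tested SOCS genes as deposited (black bar) and under the alternatives, with median-centred (red) and control-centred (blue) arrays set apart. Socs3 stays between 5.16 and 6.49, whereas Socs4 reaches from -0.72 to 0.21 and crosses 0.

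The profiles most like the largest rise and the largest fall were sought over the 6 arrays, by the distance between values centred on each gene's own mean. Nearest to Socs3 were Slc2a6, a member of the glucose transporter family (distance 0.719), H2-Q10 (0.748), the sialyltransferase gene St3gal6 (0.804), Gpr137b (0.948) and the CD300 family receptor gene Cd300ld (1.06). They rose by 5.59, 5.72, 5.92, 5.30 and 6.07, and each was highest in Gr1lo replicate 1 among the Gr1lo arrays, as the brightest Socs3 probe set was. These genes were picked for a profile like that of this probe set, so the shared pattern follows from the choice. H2-Q10 belongs to a family of near-identical class I genes, so its probe set may read its relatives. Nearest to Socs6 were R3hdm1 (0.170), Rufy3 (0.224), the nucleolar gene Nol7 (0.228), the chaperone gene Hsp90aa1 (0.272) and the phosphoglucomutase gene Pgm1 (0.273). Their falls, -1.62, -1.57, -1.72, -1.71 and -1.64, were close in size to that of Socs6, which follows from the same way of choosing. Pearson's r over the 6 arrays was 0.991 to 0.996 for the Socs3 neighbours and 0.991 to 0.997 for those of Socs6, which mostly repeats the difference between the groups.

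**Figure D4:**
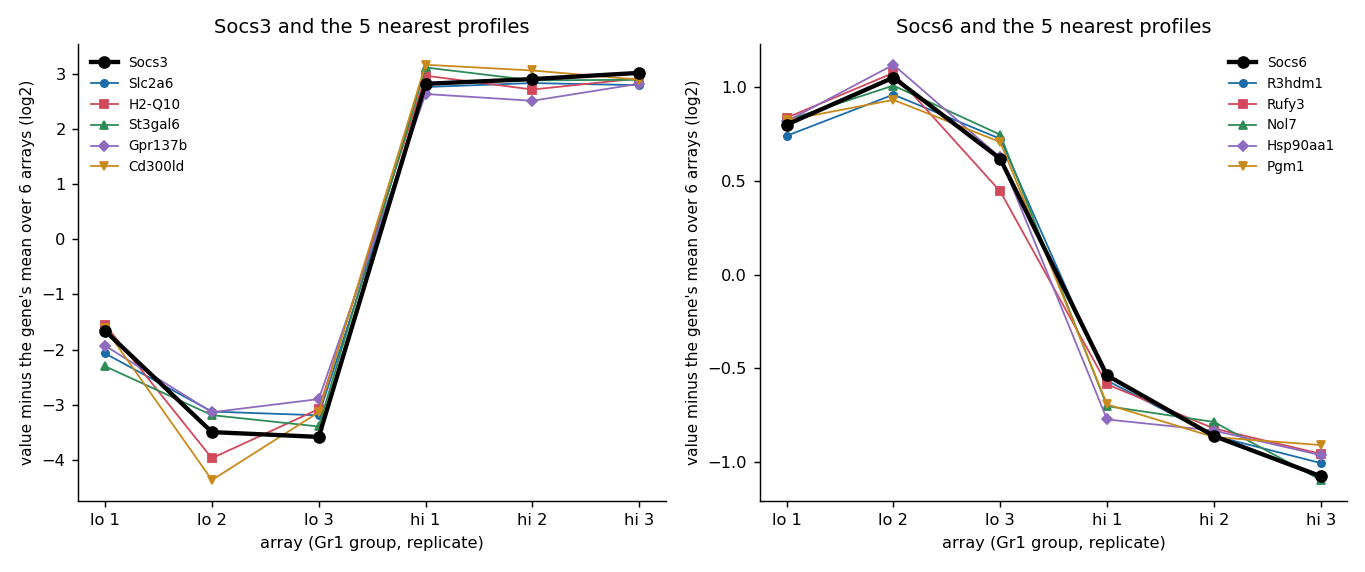
Values of Socs3 (left) and Socs6 (right, both black) and of the 5 genes nearest to each on the 6 arrays, as log2 minus the gene's own mean; lines only join the values of a gene, since replicates have no order. In the left panel Gr1lo replicate 1 is the highest Gr1lo array for the brightest Socs3 probe set and for all 5 neighbours, which were picked by that profile.

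The genes around the SOCS loop were read from lists, and each count below stands against the shares of all 12732 tested genes. These were 24.6% higher and 31.8% lower as deposited, 65.5% and 18.2% with median-centred arrays and 14.6% and 38.1% with control-centred arrays. In the list of JAKs and STATs 7 of 9 tested genes (77.8%, against 24.6% of all) rose and 0 fell (against 31.8%), with a median difference of 0.61. With control-centred arrays 4 rose, against 14.6% of all genes. Stat5b, a factor that induces Cish, rose by 1.60, Jak1 by 1.26, Stat6 by 1.19 and Stat3, which induces Socs3, by 1.05 (limma adjusted p of 1.89e-05 or lower for each). Stat3 read 10.06 ± 0.07 in Gr1lo and 11.11 ± 0.12 in Gr1hi. Stat5a (3.78 and 3.72) did not pass the test but was called higher with median-centred arrays (difference 0.62). That is below the median difference of all tested genes under the same scaling, 0.70.

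Among receptors that signal through JAKs and STATs 14 of 20 tested genes (70.0%, against 24.6% of all) rose and 0 fell (against 31.8%), with a median of 1.10. With control-centred arrays 13 rose and 2 fell. Csf3r, whose product SOCS3 restrains, rose from 9.57 ± 0.38 to 12.26 ± 0.20. Il13ra1 rose from 3.90 ± 0.06 to 8.67 ± 0.13, Ifngr2, a chain of the interferon-gamma receptor, by 2.81 and the interleukin-6 receptor gene Il6ra by 2.10. Il6st, which encodes gp130, the shared chain to which SOCS3 binds, stood at 3.68 ± 0.11 and 3.90 ± 0.11 and did not pass the test (limma adjusted p = 0.215), though it was called higher with median-centred arrays (difference 0.90).

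Other inhibitors of cytokine receptor signalling moved in both directions, as the SOCS genes did: 9 of 20 tested rose (45.0%, against 24.6% of all) and 5 fell (25.0%, against 31.8%), with a median of 0.28. With median-centred arrays 14 rose and 2 fell, and 14 of 20 is near the 65.5% of all genes. Usp18, which restrains the interferon receptor, rose from 2.64 ± 0.48 to 6.69 ± 0.82, with its Gr1lo arrays around the highest absent-transcript control. The phosphatase genes Ptpn1 and Ptprc rose by 1.44 and 1.04, and the lipid phosphatase gene Inpp5d by 0.95. Pias2, a SUMO ligase gene, fell by 1.97 and the ubiquitin ligase gene Cblb by 1.21 under every scaling. Ptpn2 fell by 0.76, Spry2 by 0.83 and Spred1 by 0.63, but these 3 calls were lost with median-centred arrays, where they differed by -0.08, -0.16 and 0.04. Without Gr1hi replicate 3 the list had 3 falls.

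The SOCS box works through a fixed set of ligase subunits. Of 12 tested ligase genes 4 fell (33.3%, near the 31.8% of all genes) and 1 rose (8.33%, against 24.6%), with a median of -0.16, so the falls say little about the list. Cullin gene Cul2 fell from 7.49 ± 0.38 to 5.68 ± 0.32 and Cand1, an exchange factor of cullin ligases, fell from 8.67 ± 0.15 to 7.24 ± 0.07, both under every scaling. Cul5, the cullin that SOCS proteins use, stood at 5.57 ± 0.26 and 4.72 ± 0.37 (difference -0.85, limma adjusted p = 0.0127), but its difference was -0.18 with median-centred arrays. The elongin C gene Eloc differed by -0.31 and turned to 0.37 there. The elongin B gene Elob (11.90 and 11.79) did not pass the test, and its direction depended on the scaling, at 0.57 with median-centred arrays and -0.36 with control-centred arrays. Arih2, the only riser, differed by 0.25 (adjusted p = 0.0479) and by -0.0071 with control-centred arrays. That rise was also lost without each of Gr1lo replicates 1 and 2 and Gr1hi replicates 1, 2 and 3, and without Gr1hi replicate 1 the list had 2 falls. With median-centred arrays 8 rose and 2 fell, near the shares of all genes, and with control-centred arrays 0 rose and 7 fell.

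Genes known as STAT-induced, a list that leaves out the SOCS genes, rose in 20 of 30 (66.7%, against 24.6% of all) and fell in 3 (against 31.8%), with a median of 1.69. With control-centred arrays 5 fell, against 38.1% of all genes. The interferon-induced genes Gbp2 and Ifit3 rose by 5.55 and 4.54, Junb by 4.48, and Il1rn, the interleukin-1 receptor antagonist gene, by 4.21. Myc fell from 5.40 ± 0.87 to 2.85 ± 0.15, a level at which 2 of the 3 Gr1hi arrays lay under the highest absent-transcript control, so the size of its fall depends on background. Vegfa fell from 6.17 ± 0.81 to 4.30 ± 0.50, and Id1 differed by -0.50, which turned to 0.17 with median-centred arrays. Socs1, which interferons induce elsewhere, stayed at absent-transcript level on the same arrays. Genes of this list and of the receptor list share Il4ra.

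The SOCS box also occurs in proteins without an SH2 domain, the ASB, SPSB, WSB and RAB40 families. Of 18 tested genes 4 rose (22.2%, near the 24.6% of all genes) and 2 fell (11.1%, against 31.8%), with a median of 0.15. Asb7 rose from 9.94 ± 0.29 to 11.47 ± 0.14 under every scaling. Spsb2 rose by 0.76, a call lost with control-centred arrays, and Asb1 and Asb5 fell by 0.82 and 0.79, calls lost with median-centred arrays. Asb5 ended at 2.27 in Gr1hi, at absent-transcript level. These counts moved to 16 higher and 0 lower with median-centred arrays and to 1 higher with control-centred arrays. Without both replicate 3 arrays 2 rose.

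**Figure D5:**
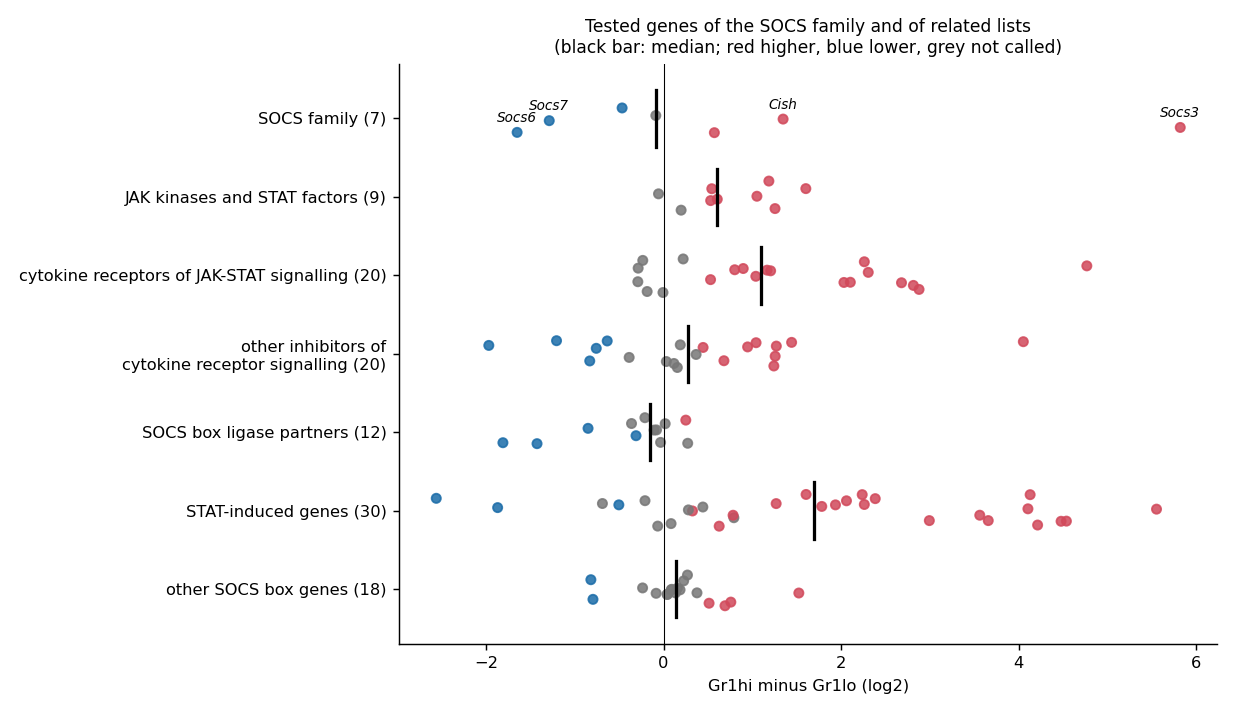
Difference Gr1hi minus Gr1lo (log2) of every tested gene of the SOCS family and of 6 related lists, with the number tested in brackets, the median as a black bar, red for called higher, blue for called lower and grey for not called; vertical scatter within a list has no meaning. Socs3 at 5.82 lies apart from the other 6 tested members, and the JAK-STAT and receptor lists hold no blue point.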

How the data were processed

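The deposited values are log2 probe set summaries; the submitters' processing notes name GCRMA, with settings not given in the sources used here. Probe sets were named through the platform annotation, and only the 34945 with 1 gene symbol were used. A gene's brightest probe set (by mean over all 6 arrays) stood for it, and genes were kept if 3 or more arrays exceeded their own 40th percentile. The groups were contrasted with limma (version 3.58.1, R version 4.3.3), using lmFit and trended eBayes with 4 residual degrees of freedom, two-sided, with Benjamini-Hochberg adjustment over 12732 genes and a threshold of 0.05. The same fit was run on 22695 probe sets. The fit was tested on simulated data with 50 changed genes per size. It recovered 28% of true log2 changes of 0.5, 82% of those of 1 and 100% of those of 2 and 4, with 12 false calls. With 50 changed genes per size among 12732, far fewer genes changed there than the 7177 called in the measured arrays. Whether these shares hold for the measured arrays was not tested. Promoter sequences are RefSeq's.

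The members and lists were chosen with earlier results of these data known. Genes named were all 8 members, in each list up to 4 called genes with the smallest p and any called gene against the list's majority, and the 5 nearest profiles. Il6st, Stat5a and Elob were named after their values were seen. Alternatives were no filter, the 60th percentile, averaging the probe sets of a gene, fitting all probe sets, eBayes without trend or robust, repeated quantile normalization, both centrings, arrayWeights, a block on replicate number, a threshold of 0.01, each array left out, and both replicate 3 arrays left out. A pseudocount did not apply.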

Additional observations from a re-analysis of the deposited data

How the results depend on the processing

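Socs3, Cish and Socs6 kept direction and call under every alternative run. The counts of 3 SOCS genes higher and 3 lower held in every fit that left out 1 array. With median-centred arrays 1 SOCS gene was lower, Socs4 turned to 0.21 and Socs5 to 0.59, and Socs7 (-0.61) lost its call; Socs5 was also 0.041 with the mean of its probe sets and 0.042 with array weights, and ran from -0.22 to 0.0074 when each array was left out (0.0074 without Gr1lo replicate 2). With control-centred arrays Socs2 (0.31) lost its call, and it was not tested with the filter at the 60th percentile or with the mean of its probe sets. The counts of the related lists moved with the same centrings. After the median centring 14 other inhibitors were higher and 2 lower, 8 ligase partners higher and 2 lower, and 16 other SOCS box genes higher and 0 lower. After the control centring 4 JAK and STAT genes were higher, 2 receptors lower, 0 ligase partners higher and 7 lower, 5 STAT-induced genes lower and 1 other SOCS box gene higher. At a threshold of 0.01, 3 other inhibitors and 2 ligase partners were lower and 0 ligase partners higher. The only ligase partner called higher (Arih2) was lost, leaving 0, with no filter, all probe sets fitted, untrended eBayes, repeated quantile normalization, the replicate block and both replicate 3 arrays left out. Other SOCS box genes numbered 2 higher without both replicate 3 arrays and 1 lower with the filter at the 60th percentile. Leaving out each array gave 3 to 5 falls among other inhibitors, 0 to 1 rises and 2 to 4 falls among ligase partners. The cause was not tested.

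The labels' replicate numbers did not pair all arrays by the rule used: deviations of same-numbered arrays correlated at 0.166, 0.0043 and 0.145, and not every array correlated best with its own number. The values of replicates 1 and 3 exceeded those of all differently numbered arrays, which reached 0.0436. Xist was also high on both replicate 3 arrays alone. A shared source of same-numbered arrays is thus possible, and the labels do not state it. With the replicate block 3 SOCS genes were higher and 3 lower, with the same genes called, and 7056 of all tested genes against 7177. Background limits the sizes for Socs2, Cish and the dimmer probe sets, since a low value cannot be told from an absent transcript.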
